A study of Mus musculus with 6 samples.

Results

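Eef1a1 encodes eEF1A1, the GTP-binding elongation factor that carries charged transfer RNAs to the ribosome. Retrocopies arise when a messenger RNA is copied back into DNA and inserted elsewhere in the genome, without introns and usually without the promoter of its parent. Because Eef1a1 is transcribed at very high levels in nearly all cells, mammalian genomes hold many such copies, and a short read from a stretch that parent and copy share cannot be placed by its bases alone. The members described here are Eef1a1 and the 4 processed pseudogenes Gm13456, Gm5869, Gm6548 and Gm5822, found by matching their Ensembl identifiers to rows of a raw count table. The 4 pseudogenes were chosen by measured values of the contrast described below, their higher counts in CD73 KO than in WT beside a parent that differed little. All 5 had a row among 49671 genes, and all 5 were among the 12242 genes that passed a filter on low counts.

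The libraries came from OT-I cells, mouse CD8 T cells with a transgenic receptor for the ovalbumin peptide SIINFEKL. The CD73 KO group held 3 libraries and the WT group held 3, and CD73 is the surface enzyme, encoded by Nt5e, that makes adenosine from AMP. Both groups were splenic cells given the peptide at 10 ng/mL daily for 5 days to induce exhaustion in culture. IL-7 and IL-15 were given at 5 ng/mL each, and the cells were replated after 48 hours and split on day 4. The strain, the allele, the age of the animals and the number of animals or cultures behind the libraries were not given in the sources used here, so p-values reflect only how these libraries vary, and that variation may be technical.

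Library totals ran from 10202128 to 19382950 counts in CD73 KO and from 6934150 to 13039990 in WT. Levels are given in CPM, counts normalised to the library total after the totals were scaled with TMM factors. All 8 CD8 T cell markers were detected in every library, with a summed level of 4897 to 5495 CPM in CD73 KO and 4563 to 5283 CPM in WT. Lyz2, Csf1r, Spi1, Ms4a1, Hba-a1 and Hbb-bs had 0 counts in all 6 libraries, and Cd4 had 0 to 5. The targeted gene Nt5e had 69, 128 and 88 counts in CD73 KO against 290, 49 and 263 in WT. At 5.22 CPM the library labelled WT replicate 2 fell among the CD73 KO libraries, which had 3.67 to 8.47 CPM, so the results on Eef1a1 and its copies are also given without it.

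A pair of coding stretches shows how the members differ from their parent. Sequences are the GENCODE M21 transcripts on mm10, and positions count from base 1 of the 1794-base Eef1a1 mRNA, whose coding sequence runs from base 121 to base 1509. Capitals in Eef1a1 mark positions at which the aligned copies share a different base. Capitals in a copy mark bases that differ from Eef1a1 or are added, and bases missing from a copy leave no mark. Gm6170, a copy that is not a member, is shown beside the members because its counts stood closest to theirs. The first stretch covers bases 841 to 960.
Eef1a1, minus strand, exon 5 at chr9:78479624-78479675 and exon 6 at chr9:78479467-78479534: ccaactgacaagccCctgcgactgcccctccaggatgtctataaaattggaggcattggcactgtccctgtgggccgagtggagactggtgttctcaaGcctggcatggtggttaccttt
Gm13456, plus strand, chr2:40556447-40556566: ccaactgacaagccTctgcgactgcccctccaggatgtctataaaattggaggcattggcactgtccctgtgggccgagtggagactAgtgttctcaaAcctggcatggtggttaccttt
Gm5869, plus strand, chr5:86997879-86997998: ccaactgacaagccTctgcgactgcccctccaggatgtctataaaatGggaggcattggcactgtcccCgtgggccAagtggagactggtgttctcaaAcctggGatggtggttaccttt
Gm6548, minus strand, chr17:78851338-78851457: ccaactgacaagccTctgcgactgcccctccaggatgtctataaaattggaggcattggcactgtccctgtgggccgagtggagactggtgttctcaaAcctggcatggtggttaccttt
Gm5822, minus strand, chr19:28862880-28862989: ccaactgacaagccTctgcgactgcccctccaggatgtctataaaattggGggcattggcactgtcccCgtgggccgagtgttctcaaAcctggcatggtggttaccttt
Gm6170, minus strand, chr1:128520622-128520741: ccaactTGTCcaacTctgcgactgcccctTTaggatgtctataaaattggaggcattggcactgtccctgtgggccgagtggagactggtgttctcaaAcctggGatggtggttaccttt
In this stretch all 5 copies carried C855T and G939A, where Eef1a1 has the first base and the copies have the second, and Gm6548 differed from Eef1a1 nowhere else.

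The second stretch, bases 1285 to 1395, is shown because it holds 3 more positions at which every copy that reaches them differs from Eef1a1 in the same way, and 1 position, base 1311, at which Gm13456 keeps the Eef1a1 base.
Eef1a1, minus strand, exon 7 at chr9:78478958-78479057 and exon 8 at chr9:78478848-78478858: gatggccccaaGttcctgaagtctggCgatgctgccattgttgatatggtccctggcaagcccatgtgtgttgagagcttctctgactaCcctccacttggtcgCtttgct
Gm13456, plus strand, chr2:40556891-40557002: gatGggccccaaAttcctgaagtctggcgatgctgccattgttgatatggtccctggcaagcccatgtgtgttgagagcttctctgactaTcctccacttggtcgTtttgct
Gm5869, plus strand, chr5:86998323-86998415: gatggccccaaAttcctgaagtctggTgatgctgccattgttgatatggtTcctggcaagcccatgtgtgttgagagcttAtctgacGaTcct
Gm6548, minus strand, chr17:78850903-78851013: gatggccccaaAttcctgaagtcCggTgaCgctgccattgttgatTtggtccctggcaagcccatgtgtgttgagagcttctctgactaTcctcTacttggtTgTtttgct
Gm5822, minus strand, chr19:28862444-28862554: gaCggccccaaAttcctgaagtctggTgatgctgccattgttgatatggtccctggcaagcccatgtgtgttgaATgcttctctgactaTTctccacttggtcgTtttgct
Gm6170, minus strand, chr1:128520187-128520297: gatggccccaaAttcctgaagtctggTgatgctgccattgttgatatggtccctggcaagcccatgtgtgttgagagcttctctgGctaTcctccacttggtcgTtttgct
Gm5869 ends at base 1377 of the Eef1a1 mRNA and therefore stops short of the last of these positions.

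Across the coding sequence, 7 copies of at least 10 counts were aligned to Eef1a1, namely the 4 members and Gm6170, Gm6767 and Gm4977. Gm36964, with 12 counts in all, is only 198 bases long and was left out of the alignment for its length. At C855T, G939A, C1191T, G1296A and C1374T all 7 carried the same base, and Eef1a1 in the reference carried another. The same held at C1389T for all 6 copies that reach it, and at C1311T for all but Gm13456. All 7 positions are the third base of an Eef1a1 codon and lie in the 3′ part of the coding sequence. The members shared these positions with the copies that are not members. No base difference was found in 3 or 4 members and in none of the 3 other aligned copies, and 5 differences were found in 2 members and in none of those 3.

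**Figure D1:**
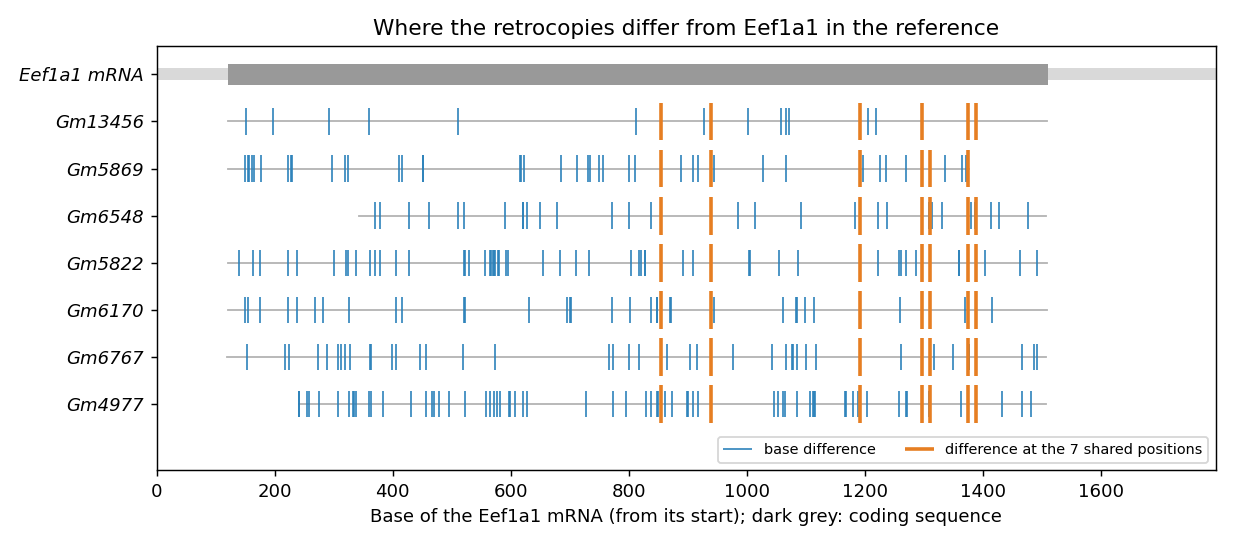
Base differences between the reference Eef1a1 mRNA (top, coding sequence in dark grey) and 7 retrocopies, by base of the mRNA counted from its start. Orange ticks mark the 7 positions at which the aligned copies share a base that Eef1a1 does not have, and blue ticks mark all other base differences; Gm13456 has the fewest.

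Gm13456 was nearest to its parent. It had 19 base differences from Eef1a1 over 1364 aligned coding bases, an identity of 98.61%, together with a gap of 25 bases and 1 added base. Its longest run identical to Eef1a1 was 301 bases, from base 512 to base 812. Gm5869 had 46 differences and no gap (96.34%), Gm6548 36 differences (96.9%) and Gm5822 60 differences (95.64%), with longest identical runs of 162, 91 and 92 bases. Gm6170 had 39 differences (97.19%) and a longest identical run of 116 bases, and Gm6767 had 47 (96.59%) and 191 bases. Identity to Eef1a1 therefore did not separate the members from the other copies.

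The members also differed among themselves. Over positions aligned in both, Gm13456 and Gm6548 were 96.56% identical and Gm5869 and Gm5822 were 93.17% identical, the highest and lowest of the 6 pairs. Read in the frame of Eef1a1, Gm13456 had 1 in-frame stop codon and 2 gaps that shift the frame, and Gm5869 had 3 stop codons. Gm6548 and Gm5822 had 0 in-frame stops by this count, but 3 and 4 frame-shifting gaps.

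How often a read could fit both places depends on its length, which is not given in the sources used here. Of windows of 100 bases, 23.1% in Gm13456 and 7.51% in Gm5869 had an identical match in the Eef1a1 mRNA. In Gm6548 and Gm5822 none of 1066 and 1279 such windows did, against 2.48% in Gm6170 and 7.18% in Gm6767. Of the Eef1a1 coding windows of that length, 29.9% occurred unchanged in at least 1 of the 7 aligned copies. Windows of 100 bases that differed from Eef1a1, but only at the 7 shared positions, made up 10.4% of Gm13456, 0.432% of Gm5869, 4.41% of Gm6548 and 1.25% of Gm5822, against 4.34% of Gm6170 and 3.35% of Gm6767. The count table does not show which bases the reads carried.

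The members lay on 5 chromosomes. Eef1a1 (ENSMUSG00000037742) is on the minus strand of chromosome 9 from 78478449 to 78489151, 9.838 Mb from Nt5e. Gm13456 (ENSMUSG00000082536, chromosome 2, 40555752 to 40557116) overlapped no annotated gene, and its nearest protein-coding gene Lrp1b, at 38130 bases, had 0 counts. Gm5869 (ENSMUSG00000104802, chromosome 5, 86997159 to 86998415) also overlapped none, and its neighbour Ugt2b35 had 0 counts. Gm5822 (ENSMUSG00000089993, chromosome 19, 28862330 to 28863707) lies inside Slc1a1 on the opposite strand, and Slc1a1 had 0 counts. Gm6548 (ENSMUSG00000091549, chromosome 17, 78850792 to 78851956) overlapped none but lies 608 bases from Eif2ak2, which is on the same strand and encodes a kinase that responds to interferon.

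Eef1a1 had more counts than any other gene in each of the 6 libraries. It had 332524, 233212 and 156529 counts in CD73 KO and 197982, 138386 and 104508 in WT. Its level was 17690, 15398 and 15069 CPM in CD73 KO, against 15396, 14740 and 14879 CPM in WT. The groups overlapped, and CD73 KO replicate 1 stood above the other 5 libraries. The log2 fold change of CD73 KO over WT was 0.10 ± 0.10 (SE), with 16052 ± 1428 CPM in CD73 KO against 15005 ± 346 CPM in WT (SD, n = 3 each), and it was 0.02 without CD73 KO replicate 1. Fewer cells of a type and less RNA per cell cannot be told apart in such bulk libraries.

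The levels of the retrocopies, which chose them, are given as a description, with no p. Gm13456 took most of the retrocopy counts, 12202, 7843 and 6461 in CD73 KO and 3089, 2189 and 1695 in WT. Its level was 649, 518 and 622 CPM in CD73 KO, against 240, 233 and 241 CPM in WT. The WT libraries were nearly level and every CD73 KO library lay above them, with a log2 fold change of 1.32 ± 0.11 (SE), 2.50-fold.

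Gm6548 had 2643, 1753 and 1198 counts in CD73 KO and 627, 414 and 473 in WT. Its level was 141, 116 and 115 CPM in CD73 KO, against 48.8, 44.1 and 67.3 CPM in WT, where WT replicate 3 was the highest of its group. The log2 fold change was 1.22 ± 0.16 (SE), and the groups did not overlap. Eif2ak2, its neighbour, was at 104, 138 and 70.1 CPM in CD73 KO and 44.3, 60.3 and 74.5 CPM in WT. Eif2ak2 did not pass edgeR's quasi-likelihood test (log2 fold change 0.81 ± 0.27, adjusted p = 0.431), its groups overlapped, and its part in the counts of Gm6548 was not tested.

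Gm5869 had 991, 941 and 619 counts in CD73 KO and 285, 206 and 143 in WT. Its level was 52.7, 62.1 and 59.6 CPM in CD73 KO, against 22.2, 21.9 and 20.4 CPM in WT. The groups stood well apart, with a log2 fold change of 1.43 ± 0.12 (SE), 2.70-fold. Gm5822 was counted far less, with 49, 47 and 37 counts in CD73 KO and 18, 12 and 9 in WT. Its level was 2.61, 3.10 and 3.56 CPM in CD73 KO, against 1.40, 1.28 and 1.28 CPM in WT, a log2 fold change of 1.20 ± 0.30 (SE). The libraries of the groups did not overlap, but single libraries of Gm5822 are imprecise. The exact 95% Poisson interval of CD73 KO replicate 1 ran from 1.93 to 3.45 CPM and that of WT replicate 1 from 0.830 to 2.21 CPM, counting error only.

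**Figure D2:**
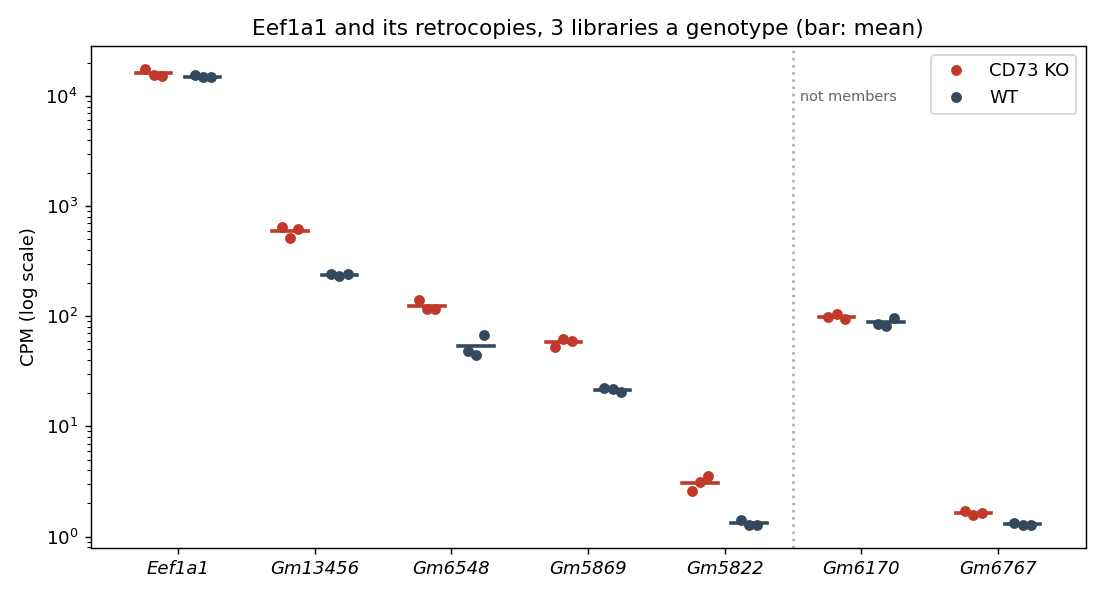
Levels in CPM, on a log axis, of Eef1a1, the 4 member retrocopies and 2 copies that are not members (right of the dotted line), with 1 point per library and a bar at the mean of 3 libraries; CD73 KO is left of WT for each gene. Gm13456 was at 518 to 649 CPM in CD73 KO and 233 to 241 CPM in WT, while the groups overlapped for Eef1a1 and Gm6170.

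Of the 5 members, 3 (Gm13456, Gm5869 and Gm6548) passed an adjusted p of 0.05 in edgeR. Of all tested genes, 0.0572% did in either direction and 0.0408% did with CD73 KO higher. Of tested processed pseudogenes, 0.548% did with CD73 KO higher. These shares include the members, since the 4 processed pseudogenes that passed with CD73 KO higher were these 3 members and Gm11868. The same 3 members passed in DESeq2, where 0.69% of genes did. The groups did not overlap, with CD73 KO higher, for 4 of the 5 members, and this held for 7.59% of all tested genes and 8.49% of tested processed pseudogenes (15.2% of all tested genes in either direction). Nothing is read from these counts, since the members were proposed with this contrast in view. Gm13456 and Gm5869 passed in all 16 alternative fits. Gm6548 passed in 11 of the 16 and in 2 of the 6 that each dropped 1 library, and Eef1a1 and Gm5822 passed in 0. Without the library labelled WT replicate 2 the log2 fold changes were 0.08 for Eef1a1, 1.30 for Gm13456, 1.44 for Gm5869, 1.10 for Gm6548 and 1.17 for Gm5822, and Gm6548 was then not called. The same was so for Gm6548 without CD73 KO replicate 2, CD73 KO replicate 3 or WT replicate 1.

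Setting each retrocopy against its parent within a library needs no scaling between libraries. For every 1000 counts of Eef1a1, Gm13456 had 36.7, 33.6 and 41.3 counts in CD73 KO, against 15.6, 15.8 and 16.2 in WT. Gm6548 had 7.71 ± 0.22 in CD73 KO and 3.56 ± 0.84 in WT (SD, n = 3 each). Gm5869 had 3.66 ± 0.59 in CD73 KO and 1.43 ± 0.06 in WT, and Gm5822 had 0.195 ± 0.045 in CD73 KO and 0.0879 ± 0.0026 in WT. The ratio of CD73 KO over WT was thus 2.34 for Gm13456, 2.16 for Gm6548, 2.55 for Gm5869 and 2.22 for Gm5822. Since the copies were chosen for this difference, nothing is read from how near these ratios are to each other.

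The proportions among the 4 retrocopies come from the values that chose them and are given as a description. Gm13456 made up 76.2% ± 1.9 of their counts in CD73 KO and 75.8% ± 2.4 in WT, and Gm6548 made up 15.9% ± 1.3 in CD73 KO and 16.9% ± 3.1 in WT (SD, n = 3 each). Gm5869 made up 7.52% ± 1.33 in CD73 KO and 6.85% ± 0.61 in WT, and Gm5822 0.399% ± 0.079 in CD73 KO and 0.420% ± 0.030 in WT. Added to the 4, Gm6170 made up 11.3% ± 1.5 of the counts of these 5 copies in CD73 KO and 21.8% ± 0.8 in WT.

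Together the 4 retrocopies took 4.56%, 4.34% and 5.04% of the counts of Eef1a1 and the members in CD73 KO, against 1.99%, 2.00% and 2.17% in WT. The exact 95% binomial intervals of the CD73 KO libraries lay between 4.26% and 5.15% and those of the WT libraries between 1.93% and 2.26%, counting error only. The share was 2.60 percentage points higher in CD73 KO, and 2.40 to 2.75 points higher when single libraries were left out. The library labelled WT replicate 2, which stood with CD73 KO at Nt5e, had a share of 2.00%. The copies were chosen with this library counted as WT, so nothing is read from its place here.

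**Figure D3:**
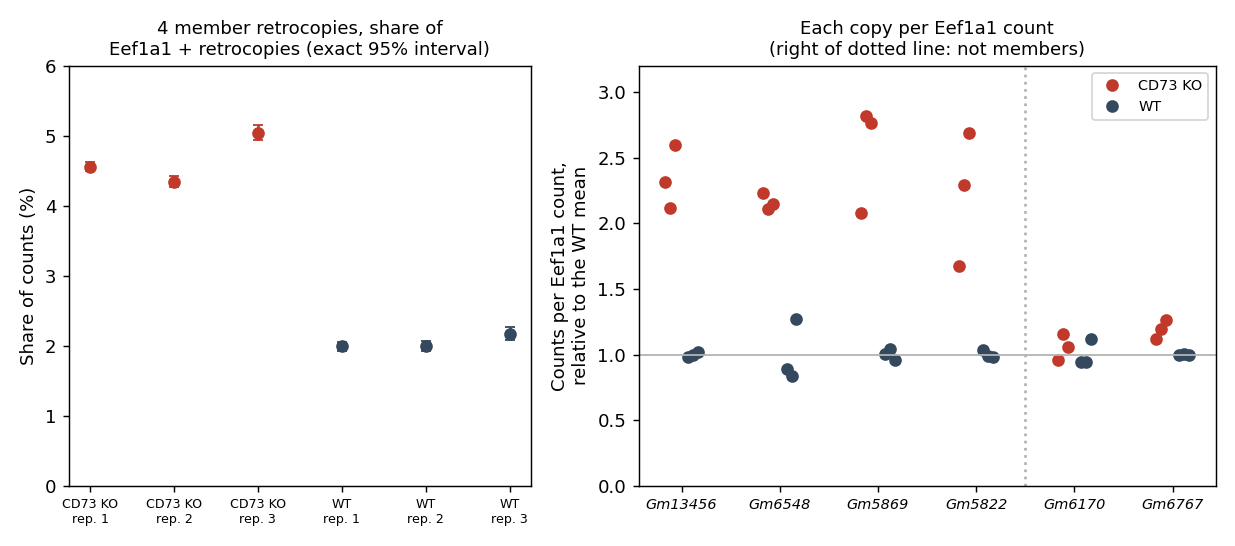
Left, share of the counts of Eef1a1 and the 4 member retrocopies that fell on the retrocopies, in percent, by library with exact 95% binomial intervals: 4.34% to 5.04% in CD73 KO and 1.99% to 2.17% in WT. Right, counts of each copy per Eef1a1 count, divided by the WT mean, with 1 point per library and CD73 KO left of WT; the 4 members and Gm6767 lie above the WT libraries in CD73 KO, with ratios of 2.16 to 2.55 for the members and 1.19 for Gm6767, and the groups overlap for Gm6170 (1.06).

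In levels, the 4 retrocopies summed to 781 ± 74.96 CPM in CD73 KO against 314 ± 15.01 CPM in WT (SD, n = 3 each), a difference of 467 CPM and a log2 fold change of 1.31 ± 0.11 (SE). Eef1a1 with all 14 copies that had a row in the table summed to 16935 ± 1479 CPM in CD73 KO against 15409 ± 347 CPM in WT (SD, n = 3 each), a log2 fold change of 0.14 ± 0.10 (SE). Its libraries did not overlap, with a lowest value of 15965 CPM in CD73 KO and a highest of 15796 CPM in WT. The family took 1.63% to 1.81% of all counts in CD73 KO and 1.49% to 1.56% in WT, and without CD73 KO replicate 1 the log2 fold change of the sum was 0.06. Without the library labelled WT replicate 2 it was 0.12, and that of the summed retrocopies was 1.28. Per kilobase of its 1794-base mRNA, the level of Eef1a1 was 8948 ± 796 CPM in CD73 KO against 8364 ± 193 CPM in WT. Per kilobase of its 1365 bases, that of Gm13456 was 437 ± 50.8 CPM in CD73 KO against 175 ± 3.2 CPM in WT (SD, n = 3 each). All annotated exons of Eef1a1 together cover 2493 bases, a length with which its level per kilobase would be lower.

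Copies that were not members were counted too, and a single one of them, Gm6170, came near the levels of Gm6548 and Gm5869. Of 22 annotated processed pseudogenes whose best protein-coding match was Eef1a1, 14 had a row and the other 8 were not analysed here. Gm6170 (chromosome 1) had 1866, 1582 and 972 counts in CD73 KO and 1095, 762 and 684 in WT. Its level was 99.3, 104.5 and 93.6 CPM in CD73 KO, against 85.2, 81.2 and 97.4 CPM in WT, and the groups overlapped. Its log2 fold change was 0.17 ± 0.11 (adjusted p = 0.638 by edgeR's quasi-likelihood test over all genes), and 0.11 without the library labelled WT replicate 2. For every 1000 Eef1a1 counts it had 6.20 ± 0.59 in CD73 KO and 5.86 ± 0.59 in WT (SD, n = 3 each), a ratio of 1.06. Its level in WT was higher than those of Gm6548 and Gm5869, and in CD73 KO it was lower than that of Gm6548.

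Gm6767 (chromosome 16) had 32, 24 and 17 counts in CD73 KO and 17, 12 and 9 in WT. Its log2 fold change was 0.34 ± 0.31 (adjusted p = 0.743 by the same test), at 1.64 ± 0.06 CPM in CD73 KO against 1.29 ± 0.02 CPM in WT (SD, n = 3 each), levels close to that of Gm5822 in WT, and its groups did not overlap. Without the library labelled WT replicate 2 its log2 fold change was 0.32. Gm4977 had 13, 7 and 4 counts in CD73 KO and 6, 4 and 1 in WT, Gm36964 had 12 counts in all libraries together, and neither passed the filter on low counts. The other 6 copies had 0 to 9 counts in all. Of the 2 other copies that could be tested, 0 passed in edgeR (0.0572% of all tested genes), 0 had an unadjusted p under 0.05 (9.64%), and 0 passed in DESeq2 (0.69%) or limma-voom. With 2 genes such counts are near the background. That a copy is a member and that its difference was large are not independent, and the difference between members and other copies was therefore not tested.

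Other retrocopies give the setting. Among 711 tested retrocopies with a tested parent, the log2 fold change of the copy minus that of its parent had a median of 0.03, and 11 (1.55%) lay more than 2-fold from their parent. Of 9 retrocopies whose parent lies within 10 Mb of Nt5e, 5 did, namely the 4 members and Gm11868. Eef1a1, at 9.838 Mb, lies just inside this window and supplied 6 of the 9, so the count hangs on where the window ends. Within 5 Mb 1 of 3 did, and within 20 Mb 5 of 22 did, windows chosen after seeing the data. Of 47 with a parent elsewhere on chromosome 9, 0 did, and of 655 with a parent on another chromosome, 6 did (0.916%). The members were chosen for this difference, so these counts are a description. Within 10 Mb the count was again 5 without the library labelled WT replicate 2. The other 4 of the 9 were Gm6170 (0.08) and Gm6767 (0.24), copies of Eef1a1, with Gm5530 (0.32), a copy of Plscr1, and Gm6501 (-0.68), a copy of Syncrip.

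**Figure D4:**
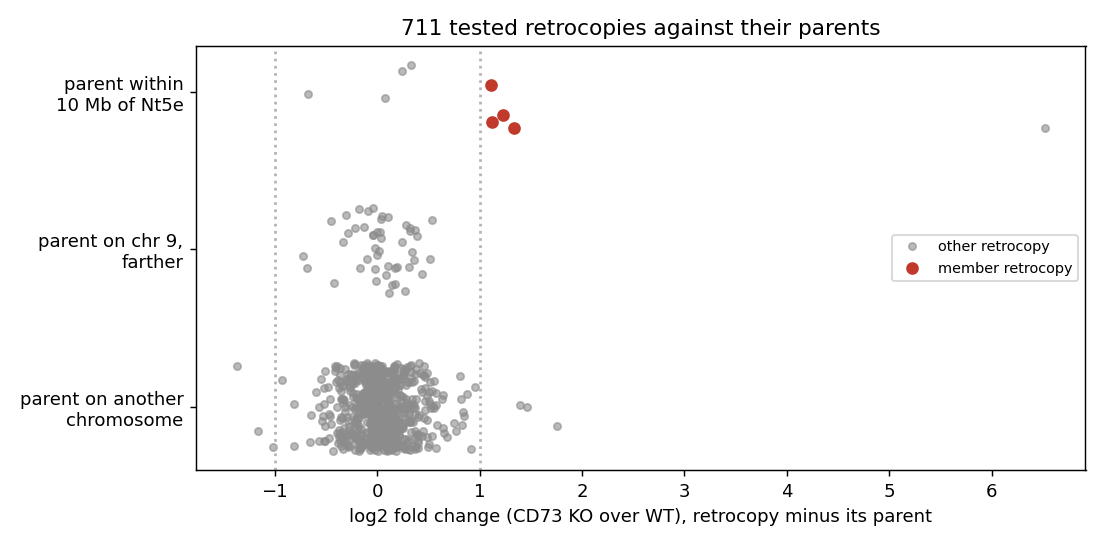
Log2 fold change (CD73 KO over WT) of each of 711 tested retrocopies minus that of its parent, in rows by where the parent lies; height within a row has no meaning, and dotted lines mark 2-fold. The 4 members (red) lie between 1.11 and 1.34, and Gm11868 at 6.52.

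Gm11868 and its parent Cyb5r4, a cytochrome b5 reductase on chromosome 9, had a pattern unlike that of Eef1a1. Gm11868 had 416, 375 and 203 counts in CD73 KO and 6, 6 and 2 in WT. With so few WT counts, the size of its fold change is imprecise. Gm11868 was at 22.1 ± 2.6 CPM in CD73 KO against 0.464 ± 0.177 CPM in WT, while Cyb5r4 was at 57.5 ± 8.4 CPM in CD73 KO against 116 ± 10.3 CPM in WT (SD, n = 3 each), so parent and copy differed in opposite directions.

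Of 35 other genes of translation elongation and its partners, 32 were tested, and 0 passed in either direction in edgeR, DESeq2 or limma-voom. With 0.0572% of all tested genes passing in edgeR and 0.69% in DESeq2, a count of 0 in a list of this size is near the background. Of the 32, 7 had an unadjusted p under 0.05, all 7 on the lower side. The median log2 fold change of the 32 was -0.20, with 25 below and 7 above 0, against a median of 0.01 over all tested genes, of which 5834 were below and 6408 above 0. By edgeR, 9.64% of all tested genes had an unadjusted p under 0.05, with 3.89% lower and 5.75% higher in CD73 KO.

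Of the partners of eEF1A, Eef1b2 and Eef1g belong to the complex that reloads it with GTP. Eef1b2 was at 1171 ± 28.9 CPM in CD73 KO against 1105 ± 61.9 CPM in WT (log2 fold change 0.08 ± 0.09, adjusted p = 0.794 by edgeR), and Eef1g at 1353 ± 101 CPM in CD73 KO against 1509 ± 88.0 CPM in WT (-0.16 ± 0.10, adjusted p = 0.640 by edgeR). Eef1a2, the paralog of Eef1a1 typical of muscle and neurons, gave no count in any of the 6 libraries. The 3 counts that a count of 0 allows correspond to 0.160 to 0.427 CPM, depending on the library. Mettl13, Eef1akmt1 and Eef1akmt2, methyltransferases of eEF1A, had log2 fold changes of -0.36 ± 0.13, -0.24 ± 0.13 and 0.01 ± 0.15.

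Eef2, the factor that moves the ribosome along, was at 6612 ± 388 CPM in CD73 KO against 7071 ± 318 CPM in WT (-0.10 ± 0.09, adjusted p = 0.762 by edgeR). Dph6, an enzyme of the diphthamide modification of eEF2, had 0.11 ± 0.15. Eif5a, which helps ribosomes through difficult sequences, had -0.24 ± 0.10 (adjusted p = 0.492 by edgeR), with 1360 ± 116 CPM in CD73 KO against 1608 ± 11.7 CPM in WT, and its groups did not overlap. The 2 list members of smallest p were Abce1, a ribosome recycling factor (-0.31 ± 0.10, adjusted p = 0.385 by edgeR), and Etf1, the release factor that reads stop codons (-0.28 ± 0.09, adjusted p = 0.407 by edgeR). All 4 genes of mitochondrial elongation had values below 0, with a median of -0.29, and so had all 4 of the eIF5A group, with -0.26. Of 7 related GTPases and partners, 6 were below 0 and 1 above. In the eEF2 group 5 were below and 4 above.

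**Figure D5:**
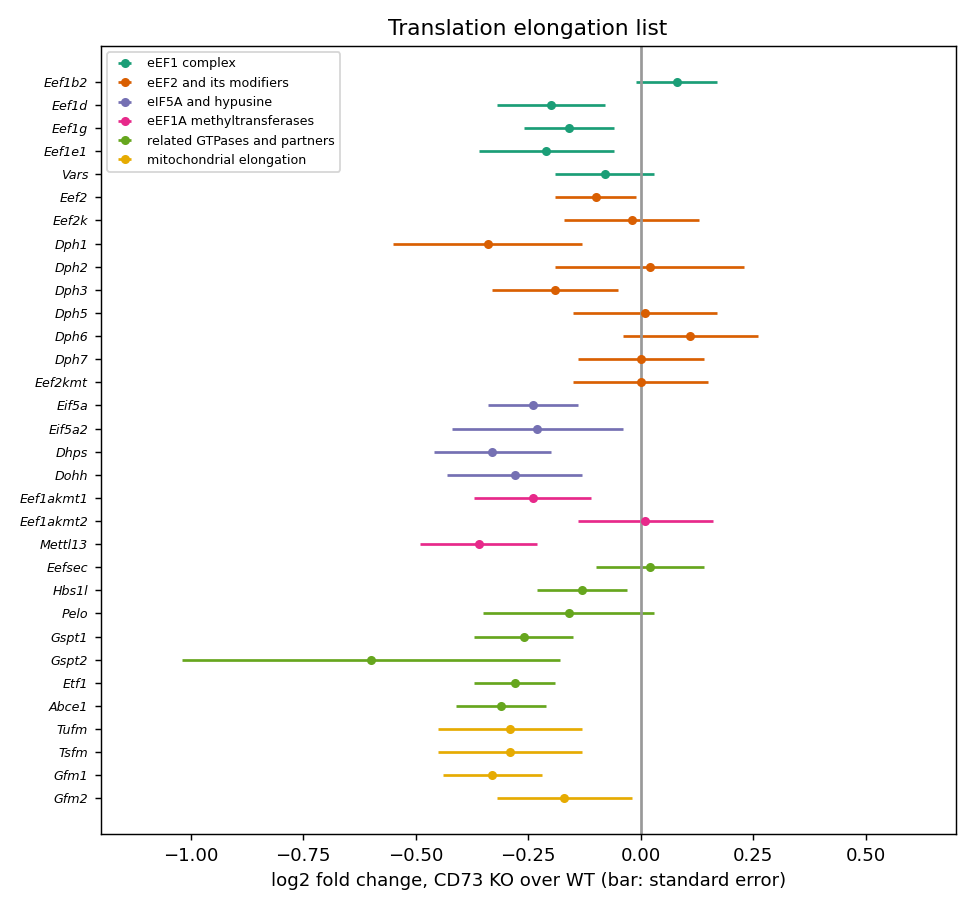
Log2 fold change, CD73 KO over WT, of the 32 tested genes of the elongation list, with bars of 1 standard error, coloured by group. Values run from -0.60 (Gspt2) to 0.11 (Dph6), and 25 of 32 lie below 0.

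Likeness of pattern was measured by Pearson's r of log2 CPM over the 6 libraries, among 9844 genes with a mean of at least 5 CPM. The nearest to Eef1a1 were Zfp280b (r = 0.992), Cep89 (0.989) and Pak1ip1 (0.984). The nearest to the summed retrocopies, where the libraries fall into 2 separate groups by genotype, were Parp8 (0.988), the lincRNA 2310001H17Rik (0.987) and Phka2 (0.985). The ranking is a description only. Of these 6 genes Parp8 had the largest log2 fold change, with 33.0 CPM in CD73 KO against 20.1 CPM in WT (log2 fold change 0.72 ± 0.13, adjusted p = 0.138 by edgeR), smaller than that of the 4 retrocopies.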

How the data were processed

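RNA of 6 libraries was measured with a strand-preserving kit, per the labels' protocols. The values deposited by the authors are raw counts of reads per gene. The submitters' processing notes name fastp, HISAT2, featureCounts and mm10; no version, annotation release, strand setting or treatment of reads that fit several places was given in the sources used here. Each of the table's count columns matched 1 library, by name. Without a stated strand setting, overlapping genes cannot be told apart, and levels of near-identical copies are uncertain.

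Genes were kept with filterByExpr (minimum count 10, total 15), scaled with TMM factors and fitted with edgeR 4.0.16 in R 4.3.3 (quasi-likelihood F-test, robust, legacy fit, Benjamini-Hochberg over all tested genes, threshold 0.05). The standard error is the size of the log2 fold change divided by the square root of F. Alternatives were DESeq2 1.42.0, limma-voom 3.58.1, other scalings, filters and fits, a replicate block, thinning, and each library left out. The fit was tested on simulated data.

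Pseudogene transcripts of GENCODE M21 were matched to protein-coding ones with blastn 2.17.0 (E-value limit 1e-20, 70% covered) and aligned with Biopython 1.88. Members and lists were chosen with earlier results of these data known. Named genes were the members, Nt5e, other copies with at least 10 counts, the pair Cyb5r4 and Gm11868, the 4 most abundant elongation genes, the 2 of smallest p in each direction, and the 3 genes most alike to each pattern. Eif2ak2, the methyltransferases, the mitochondrial genes, the other elongation groups, Gspt2 and the retrocopies of other parents were named after their values were seen.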

Additional observations from a re-analysis of the deposited data

How the results depend on the processing

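The log2 fold changes of the 5 members, both sums, Gm6170, Gm6767, Eef2, Eif5a, Eef1g, Eef1b2, Dph6, Abce1 and Etf1 kept their direction under the 16 alternative fits. With 1 library left out, uncalled small values moved by more than 1.5 times: Eef1a1 ran from 0.02 to 0.14, Dph6 from 0.01 to 0.18, Eef2 from -0.13 to -0.05, Eef1b2 from 0.05 to 0.13 and Gm6170 from 0.11 to 0.25. The summed retrocopies ran from 1.25 to 1.39, the summed family from 0.06 to 0.18, and Gm5822, at 9 to 49 counts, reached 1.52 after thinning. Called genes, 7 in edgeR, were 298 without a filter on low counts, 94 with DESeq2 and 4 to 8 with 1 library left out, with 4 without CD73 KO replicate 2 or the library labelled WT replicate 2. Called processed pseudogenes, 4 in edgeR, were 11 without a filter and 3 to 4 with 1 library left out. Called members, 3, were 2 to 3. Of the 6 genes most alike to the members, 3 stayed among the nearest without a minimum CPM and 1 with Spearman's rho. Windows of the 4 retrocopies identical to Eef1a1 made up 7.97% at 100 bases, 24.4% at 50, 12.8% at 75 and 3.63% at 150. With the replicate number as a block, 2 members and 5 genes were called. Deviations of same-numbered libraries correlated at 0.15, -0.17 and 0.01 across genes, and those of libraries with different numbers at -0.32 to 0.36. The labels do not say whether the numbers pair the libraries. With 3 libraries in each group these correlations cannot decide it. The count of 5 retrocopies more than 2-fold from a parent near Nt5e, an observation added after seeing the data, was 4 to 7 over the fits and 1 with a window of 5 Mb.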
